A study of Mus musculus with 23 samples.

Results

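Leukocytes hold on to each other and to their surroundings through a small set of surface receptors, and 9 of their genes are described here in single cells of mouse bone marrow. Itgb2 is the common β2 chain that pairs with Itgal to form LFA-1 and with Itgam to form Mac-1 (CD11b/CD18). Itgb1 is the β1 chain that pairs with Itga4 to form VLA-4 and with Itga6 to form VLA-6, a laminin receptor. Selplg encodes PSGL-1, a ligand of the selectins, Cd44 a receptor for hyaluronan, and Cd47 the ligand of the inhibitory receptor SIRPα on macrophages. The genes were chosen by symbol, with earlier results of these data known, and are 9 of the 23536 gene symbols in the table of all cells; their measured values played no part in the rule.

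As background, β2 integrins are carried by most white cells and bind ICAM-family partners, whereas VLA-4 is carried by progenitors, lymphocytes and erythroblasts and binds VCAM-1 and fibronectin. Integrins need both chains to reach the surface, so the RNA of an α chain alone does not give a receptor. Erythroblasts mature in islands around macrophages, where VLA-4 on the erythroblast meets VCAM-1 on the macrophage.

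The study placed single bone marrow cells of mice in 96-well format and counted their transcripts by CEL-seq, a single-cell method that reads a tag at the 3′ end of each molecule. One group was hematopoietic stem cells sorted singly as Lineage- Kit+ Sca1+ CD150+ CD48- (HSC); 4 of its libraries were analysed, with 245 of 369 wells at 1000 transcripts or more and 2 to 91 such cells a library. The other group was micro-dissected: marrow was gently flushed, and small groups of attached cells were taken apart by needle into single cells; 17 of its libraries were analysed, with 707 of 1546 wells at 1000 transcripts or more and 6 to 73 such cells a library. The labels give neither the strain, sex nor age of the mice nor the animal behind a library, and the p-values therefore speak of the spread among libraries, part of which may be technical.

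The kept cells of a library held 3119 to 238770 transcripts in the sorted HSC, with a median of 1926 per cell, and 9032 to 313488 in the dissected cells, with a median of 2272. Sorted HSC replicate 1 had only 2 kept cells, so that 1 transcript there is 321 counts per 1e6 transcripts (CPM, the unit of all levels below). All libraries use the same 96 well barcodes, and no 2 kept cells had identical profiles. The sorted cells carried 17 of 17 genes of a stem and multipotent progenitor list, at a summed 6150 CPM. In the dissected classes named below, its sum was lowest in erythroblast-like cells, at 147 CPM. It reached 2050 CPM in megakaryocyte-like and 4030 CPM in plasma cell-like cells. The dissected cells were clustered without the 9 genes and without other listed adhesion genes, and clusters were named from marker genes. The classes were promyelocyte-like (myeloblasts and promyelocytes, 68 cells), myelocyte-like (myelocytes and metamyelocytes, 102), mature neutrophil-like (93), eosinophil-like (43), monocyte/dendritic-like (59), macrophage-like (18), megakaryocyte-like (8), plasma cell-like (9) and erythroblast-like (244). The monocyte/dendritic-like class was not uniform. Its own list summed to 6340 CPM, beside 7410 CPM of the eosinophil list and 2790 CPM of the basophil and mast cell list. It also held 502 CPM of the T and NK cell list (11 of 11 genes) and 568 CPM of the B cell list (10 of 13). The part of other cell types in the levels of this class was not tested. In a finer clustering (resolution 2), clusters of that name held 41 cells led by Irf8 and 10 cells led by Fn1. An unnamed cluster of 17 cells there was led by Ccl5, Ms4a4b and Lck. A cluster of 53 cells stayed unnamed, with all its cells in micro-dissected replicates 1 to 5, and 10 cells were led by skeletal muscle genes.

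Taken over whole libraries, the sorted HSC had far fewer transcripts of the β2 integrins than the dissected marrow, while the β1 integrin genes, Selplg and Cd47 did not pass the test. Of the 9 genes, 4 were lower in sorted HSC at an adjusted p under 0.05 (Itgam, Itgb2, Itgal and Cd44) and 0 were higher, where 30.4% of the 3639 genes tested passed in either direction, 19.2% as lower and 11.2% as higher. The median log2 fold change of the 9 was -0.86, beside -0.16 over all genes tested. Tests across genes are edgeR's quasi-likelihood test on sums per library with Benjamini-Hochberg adjustment, over 4 sorted and 17 dissected libraries here.

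Itgb2, the β2 chain, was at 0, 16.8, 34.2 and 11.1 CPM in sorted HSC replicates 1, 3, 4 and 5, against 122 (lowest), 400 (median) and 698 CPM (highest) over the 17 dissected libraries. Every sorted library lay below every dissected one. The log2 fold change was -4.47 ± 0.54 (SE, adjusted p = 7.4e-08, edgeR). Itgam, the α chain of Mac-1, was at 0, 4.2, 0 and 5.56 CPM in the sorted replicates, which is 2 transcripts in 245 cells, against 0, 225 and 476 CPM (lowest, median and highest) in the dissected libraries, so the ranges met at 0. It was lower by -5.88 ± 0.77 on the log2 scale (adjusted p = 3.1e-07, edgeR). CD11b, the protein of Itgam, is commonly among the antibodies of a Lineage gate, and the labels do not list those used, so selection by the gate and a low level in these stem cells cannot be told apart. Itgal, the α chain of LFA-1, was at 0, 12.6, 8.56 and 0 CPM in the sorted replicates, against 0, 47.6 and 312 CPM in the dissected libraries, so the ranges overlapped. Its log2 fold change was -3.81 ± 1.07 (adjusted p = 0.00898, edgeR), and the call was lost without sorted HSC replicate 5 (-3.17, adjusted p = 0.0638) and at a minimum of 2000 transcripts per cell (-3.13, adjusted p = 0.0553).

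Itga4, the α chain of VLA-4, was at 0, 109, 128 and 145 CPM in sorted HSC, against 0, 111 and 317 CPM (lowest, median and highest) in the dissected libraries. The 3 larger sorted libraries lay close to the dissected median, and the log2 fold change of -0.25 ± 0.45 did not pass (adjusted p = 0.712, edgeR). Itgb1, the β1 chain, was at 965, 151, 85.6 and 134 CPM in sorted HSC, where the first value rests on 3 transcripts in 2 cells, against 47.5, 115 and 782 CPM in the dissected libraries. Itga6, the laminin-binding α chain, was at 0, 46.2, 34.2 and 66.7 CPM in sorted HSC, against 0, 13.9 and 641 CPM in the dissected libraries. For both genes the highest dissected value was that of replicate 1. Neither passed the test, at -0.37 ± 0.48 for Itgb1 (adjusted p = 0.603, edgeR) and -0.86 ± 1.17 for Itga6 (adjusted p = 0.628, edgeR).

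Selplg stood at 0, 189, 248 and 161 CPM in sorted HSC, against 40.6, 196 and 355 CPM (lowest, median and highest) in the dissected libraries, a log2 fold change of -0.21 ± 0.40 (adjusted p = 0.739, edgeR). Cd44 stood at 321, 156, 68.5 and 156 CPM in sorted HSC, against 111, 198 and 710 CPM in the dissected libraries. Cd44 was lower by -1.26 ± 0.46 on the log2 scale (adjusted p = 0.0318, edgeR), although the ranges overlapped. Cd47 stood at 644, 391, 154 and 502 CPM in sorted HSC, against 222, 507 and 646 CPM in the dissected libraries, and its -0.66 ± 0.33 did not pass (adjusted p = 0.128, edgeR). The call for Cd44 was lost without sorted HSC replicate 3 (-1.37, adjusted p = 0.0869), without replicate 4 (-1.07, adjusted p = 0.174) and without replicate 5 (-1.28, adjusted p = 0.0957). It was also lost without the 8 megakaryocyte-like cells, an alternative chosen after seeing the data, at -0.83 (adjusted p = 0.0942). Library totals as the scaling (-1.07, adjusted p = 0.0658) and a minimum of 2000 transcripts per cell (-1.13, adjusted p = 0.131) ended it too. Leaving out the megakaryocyte-like cells turned Itgb1 to 0.46 (adjusted p = 0.316), with Itgb2, Itgam and Itgal still called.

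**Figure D1:**
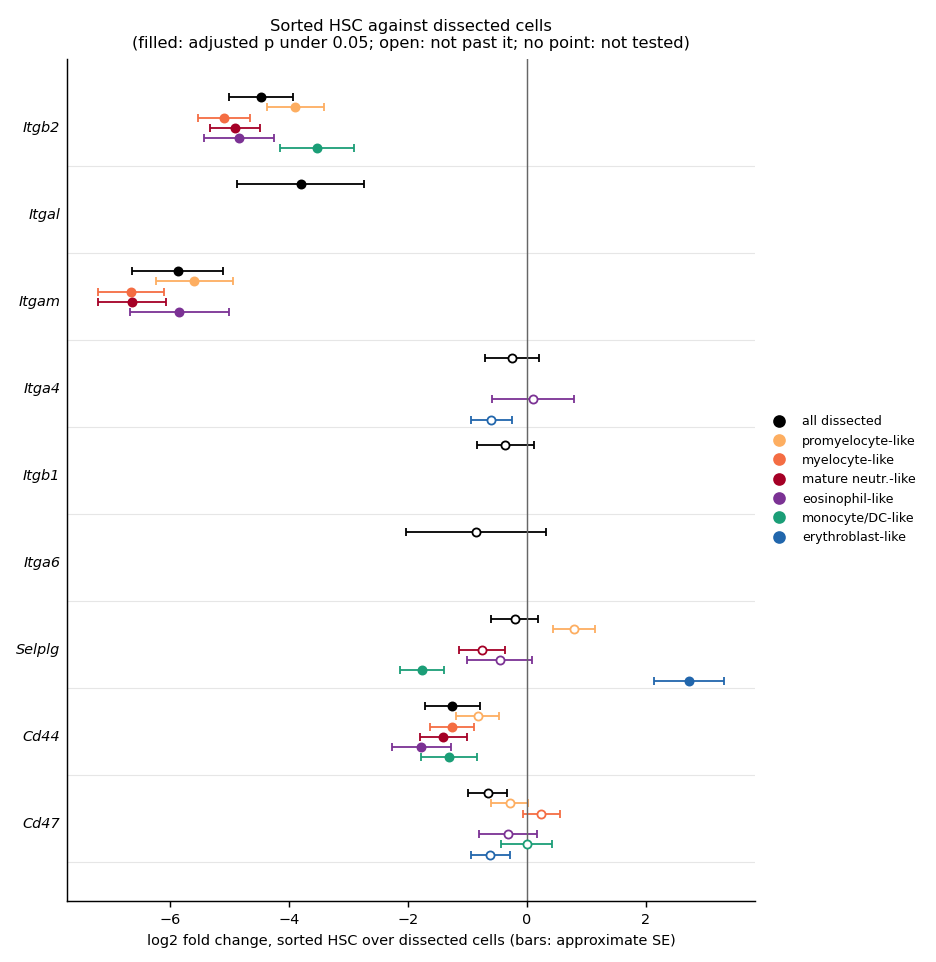
Log2 fold change of each gene in sorted HSC over all dissected libraries (black) and over each dissected class (colours), with approximate standard errors as bars; filled points have an adjusted p under 0.05 and open points do not. Itgb2 lies at -3.53 or further left and Itgam at -5.60 or further left wherever they were tested, Selplg is at 2.72 against erythroblast-like cells and at -1.76 against monocyte/dendritic-like cells, and no Cd47 point is filled.

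Positions are given on mm10 from the GENCODE vM21 annotation. Itgb2 is at chr10:77530252-77565708 (+ strand), Itgal at chr7:127296260-127335138 (+) and Itgam at chr7:128062640-128118491 (+). Itga4 is at chr2:79255426-79333123 (+), Itgb1 at chr8:128685654-128733200 (+) and Itga6 at chr2:71745616-71858416 (+). Selplg is at chr5:113818536-113832644 (- strand), Cd44 at chr2:102811141-102901665 (-) and Cd47 at chr16:49800533-49915010 (+). All 9 are protein-coding, and the counted tags come from the 3′ ends of their transcripts, so the same gene is compared between cells and not one gene with another.

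Promoter sequences were found for 5 of the 9 genes in the RefSeq set of GRCm38.p6, each from 250 bases before to 50 after the start. The 3 shown are of genes whose levels separate the lineages below: Itgam and Cd44, which were higher in the neutrophil line, and Itga4, which was lower there. Capitals mark GAGGAA, a core bound by the myeloid factor PU.1 (TTCCTC on the other strand), and AGATAA, a core bound by GATA factors (TTATCT on the other strand). Both strands were searched, and in these windows no matches share a base.
Itgam, chr7:128062390-128062689, + strand: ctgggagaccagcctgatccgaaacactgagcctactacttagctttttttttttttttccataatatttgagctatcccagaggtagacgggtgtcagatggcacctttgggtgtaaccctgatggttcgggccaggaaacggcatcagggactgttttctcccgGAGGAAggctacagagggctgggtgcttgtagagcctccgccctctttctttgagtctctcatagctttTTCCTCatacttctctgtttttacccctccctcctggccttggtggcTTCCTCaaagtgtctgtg
Cd44, chr2:102901616-102901915, - strand: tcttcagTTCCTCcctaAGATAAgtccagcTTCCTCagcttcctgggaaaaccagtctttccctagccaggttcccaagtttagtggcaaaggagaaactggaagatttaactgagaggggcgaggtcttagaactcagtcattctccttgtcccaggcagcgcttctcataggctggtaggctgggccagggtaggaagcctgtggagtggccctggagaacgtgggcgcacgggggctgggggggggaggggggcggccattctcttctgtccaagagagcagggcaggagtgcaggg
Itga4, chr2:79255176-79255475, + strand: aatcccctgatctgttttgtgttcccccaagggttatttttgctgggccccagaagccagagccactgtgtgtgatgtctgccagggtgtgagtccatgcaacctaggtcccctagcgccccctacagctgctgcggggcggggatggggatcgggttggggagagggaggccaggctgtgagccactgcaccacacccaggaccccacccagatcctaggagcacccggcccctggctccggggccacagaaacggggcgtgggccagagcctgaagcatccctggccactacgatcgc
The Itgam window held GAGGAA 3 times, 84 and 15 bases before and 32 bases after the start, and the Cd44 window held it 2 times with 1 AGATAA between. The Itga4 window held neither. Among the other matched windows, Itgb1 held GAGGAA 1 time and Cd47 held neither. Of 32851 windows of the same length, 28.3% held GAGGAA and 11.2% held AGATAA. A match is a description of the letters and not a site.

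Among the dissected cells, the receptors split by lineage. The neutrophil-line, eosinophil-like and monocyte/dendritic-like classes had more Itgb2, Selplg and Cd44 than erythroblast-like cells. Itgam was higher in the neutrophil-line and eosinophil-like classes. Selplg was not high in all of them, at 130 CPM in promyelocyte-like and 106 CPM in myelocyte-like cells, below the 200 CPM of sorted HSC. Erythroblast-like cells had little RNA of the β2 integrin genes and stood highest of the tested classes in Itga4 and Cd47. These comparisons used library-by-class sums of at least 5 cells with the library as a block, and 6 of the 9 genes had enough transcripts to be tested among 1356 genes. Itgal, Itgb1 and Itga6 were not tested there. The comparisons of classes with erythroblast-like cells share the same 12 erythroblast-like sums. All levels of a class below are the mean ± SD of such library sums, and a low sum cannot tell fewer cells with the gene from less RNA per cell; the shares of cells with a tag are given further on. In the order of mean levels the ranges of neighbouring classes overlapped for all 9 genes, except between promyelocyte-like and monocyte/dendritic-like cells for Itgam and between the unnamed cells and sorted HSC for Itgal.

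Against erythroblast-like cells, 4 genes were higher and 1 lower in promyelocyte-like cells, where 34.0% of all genes tested were called higher and 27.3% lower (61.3% in all). In myelocyte-like cells 4 were higher and 2 lower, where 35.5% of all genes were called higher and 32.6% lower (68.1% in all). In mature neutrophil-like cells 4 were higher and 2 lower, where 35.7% were called higher and 42.1% lower (77.8% in all). In eosinophil-like cells 4 were higher and 0 lower, where 26.1% were called higher and 19.0% lower (45.1% in all). In monocyte/dendritic-like cells 3 were higher and 1 lower, where 28.4% were called higher and 20.6% lower (49.0% in all). These counts are of the tested members alone and leave out Itgal, Itgb1 and Itga6. Whether the tested members were called more often than all genes was not tested.

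Itgb2 stood at 355 ± 119 CPM in promyelocyte-like (SD, n = 6 libraries), 795 ± 220 in myelocyte-like (n = 9) and 1200 ± 245 CPM in mature neutrophil-like cells (n = 8), against 46.6 ± 63.5 CPM in erythroblast-like cells (n = 12). The lowest mature library had 966 CPM and the highest erythroblast-like library, replicate 12, had 240 CPM, so these 2 classes did not overlap. The log2 fold changes over erythroblast-like cells were 3.11 ± 0.36 (promyelocyte-like, adjusted p = 1.7e-12), 4.71 ± 0.31 (myelocyte-like, adjusted p = 5.9e-24) and 5.45 ± 0.31 (mature, adjusted p = 2.0e-27), all by edgeR. In eosinophil-like cells Itgb2 was at 374, 322 and 1400 CPM in replicates 10, 13 and 17, a log2 fold change of 4.02 ± 0.49 (adjusted p = 6.0e-11, edgeR), with replicate 17 far above the others. In monocyte/dendritic-like cells it was at 131, 322, 226.5, 253 and 348 CPM in replicates 3, 9, 10, 11 and 13, a log2 fold change of 2.74 ± 0.44 (adjusted p = 1.7e-07, edgeR).

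Itgam stood at 285 ± 137 CPM in promyelocyte-like, 652 ± 304 in myelocyte-like and 1020 ± 324 CPM in mature neutrophil-like cells, against 36.5 ± 35.4 CPM in erythroblast-like cells, with the same library numbers. The lowest promyelocyte-like library (130 CPM) was above the highest erythroblast-like one (107 CPM). The mature cells exceeded erythroblast-like cells by 5.24 ± 0.34 on the log2 scale (adjusted p = 4.0e-24, edgeR), and eosinophil-like cells, at 248, 161 and 575 CPM, by 3.30 ± 0.62 (adjusted p = 7.9e-06, edgeR). Monocyte/dendritic-like cells, a mixed class, were the exception among the tested myeloid classes, with 0 to 121 CPM. Their log2 fold change of 0.75 ± 0.69 did not pass (adjusted p = 0.384, edgeR). Macrophage-like cells, which were not tested, were also low, at a pooled 58.8 CPM from 5 transcripts. Every promyelocyte-like library lay above every monocyte/dendritic-like one. The 14 genes of the myelocyte list, which are among the most abundant transcripts of neutrophil precursors, summed to 140000 CPM in myelocyte-like cells and 2490 CPM in erythroblast-like cells, and all 14 had transcripts in both; their part in the 25 Itgb2 and 23 Itgam transcripts of the 244 erythroblast-like cells was not tested.

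Itgal was counted at 95.3 ± 96.7 CPM in promyelocyte-like, 107 ± 104 in myelocyte-like, 221 ± 70.2 in mature neutrophil-like and 160 ± 83.9 CPM in monocyte/dendritic-like cells, against 5.83 ± 15.2 CPM in erythroblast-like cells, which held 2 Itgal transcripts in all. The eosinophil-like libraries scattered from 0 to 329 CPM. Neighbouring classes in this order overlapped.

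**Figure D2:**
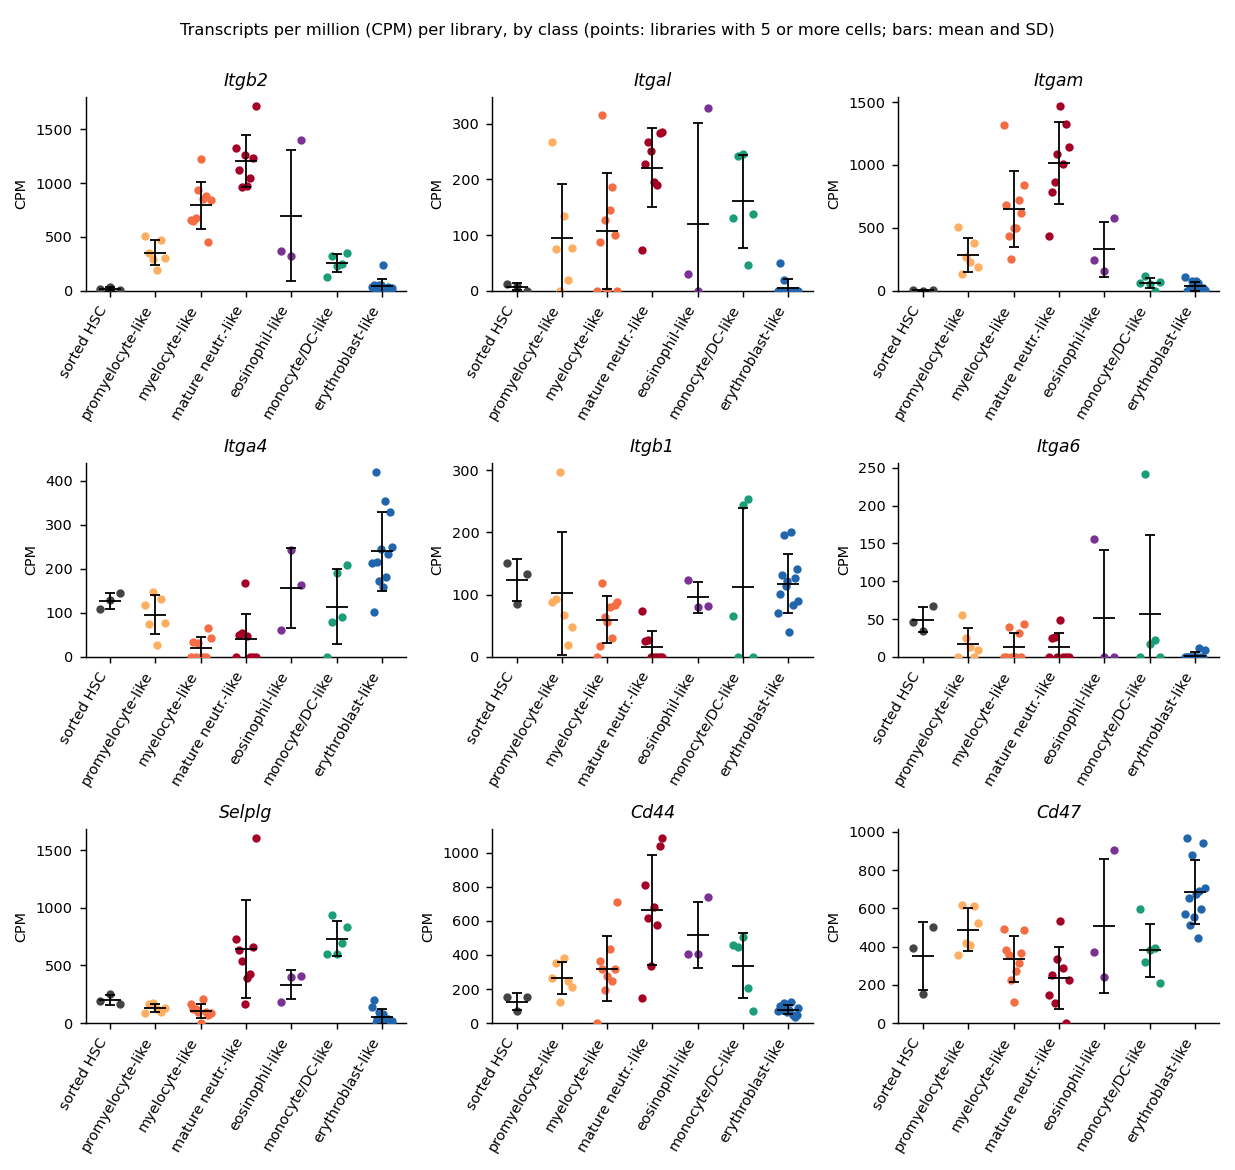
Level of each gene in CPM per library (points, libraries with 5 or more cells of the class) in sorted HSC and 6 dissected classes, with mean and SD as bars. Itgb2 and Itgam climb through the 3 neutrophil stages, Itga4 and Cd47 are highest in erythroblast-like cells at 239 and 684 CPM, and Selplg is highest in monocyte/dendritic-like cells at 732 CPM.

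The β1 integrin genes ran the other way in part. Itga4 stood at 96.1 ± 45.1 CPM in promyelocyte-like, 19.7 ± 25.3 in myelocyte-like and 39.9 ± 57.2 CPM in mature neutrophil-like cells, against 239 ± 89.7 CPM in erythroblast-like cells, whose libraries ran from 101 through a median of 225 to 419 CPM. No myelocyte-like library (highest 66.7 CPM) reached the lowest erythroblast-like one. Itga4 was lower by -1.42 ± 0.40 in promyelocyte-like (adjusted p = 0.00141), by -2.68 ± 0.50 in myelocyte-like (adjusted p = 2.0e-06) and by -1.92 ± 0.55 in mature neutrophil-like cells (adjusted p = 0.00124), all edgeR on the log2 scale. Sums of at least 10 cells ended the call in mature cells (-1.50, adjusted p = 0.0703). It did not pass in eosinophil-like cells, at 61.9, 242 and 164 CPM (-0.86 ± 0.67, adjusted p = 0.296, edgeR). Nor did it pass in monocyte/dendritic-like cells, at 0, 80.4, 192, 91.7 and 208 CPM (-0.97 ± 0.48, adjusted p = 0.0841, edgeR), where leaving out replicate 10 made the call (-1.64, adjusted p = 0.0197). Erythroblast-like cells held 57.9% of all Itga4 transcripts of the dissected cells, with 34.5% of the cells and 29.2% of the transcripts.

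Itgb1 was more even. It stood at 102 ± 99.0 CPM in promyelocyte-like, 59.7 ± 37.7 in myelocyte-like, 15.6 ± 26.0 in mature neutrophil-like, 95.4 ± 24.7 in eosinophil-like and 113 ± 127 CPM in monocyte/dendritic-like cells, against 118 ± 46.8 CPM in erythroblast-like cells. The mature class was lowest, with 0 to 73.0 CPM in 8 libraries, against 39.7 to 200 CPM in 12 erythroblast-like ones, so the ranges overlapped. Itga6 had 2 transcripts in the 244 erythroblast-like cells and means of 12.6 to 56.5 CPM in the myeloid classes. It had 27 transcripts in the 245 sorted HSC (49.0 ± 16.4 CPM, n = 3 libraries), and its counting ratio of sorted HSC over erythroblast-like cells is 18.1 (exact 95% interval 4.55 to 157), counting error only.

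Most Itga6 of the dissected marrow came from 8 megakaryocyte-like cells in 5 libraries. Megakaryocytes are the large polyploid cells that shed platelets, and these 8 had a median of 10272 transcripts each. They made up 1.13% of the dissected cells and 4.95% of their transcripts, and held 82.0% of the Itga6 transcripts, 46.2% of Itgb1, 37.4% of Itgal, 28.2% of Cd44, 12% of Itgb2 and 10.0% of Cd47. Pooled over the 8 cells, the levels were 1490 CPM for Itga6 (exact 95% Poisson interval 1280 to 1720), 1660 CPM for Itgb1 (1440 to 1910), 1890 CPM for Cd44 (1650 to 2150), 928 CPM for Itgal (766 to 1120) and 1030 CPM for Itgb2 (862 to 1230). Itga4, Itgam and Selplg had 2, 1 and 1 transcripts in them. Single cells held 1 to 79 Itga6 transcripts with a median of 18, and 5 to 59 Itgb1 transcripts with a median of 19. With these cells left out, the mean Itga6 of the 17 dissected libraries was 13 ± 16.6 CPM, against 90.0 ± 168 CPM with them, and Itgb1 was at 101 ± 36.0 CPM, against 181 ± 176 CPM. No class of fewer than 3 libraries with 5 cells has a test here.

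Selplg was high in the mature neutrophil-like and monocyte/dendritic-like classes. It stood at 130 ± 35.3 CPM in promyelocyte-like, 106 ± 58.9 in myelocyte-like and 644 ± 427 CPM in mature neutrophil-like cells, against 53.7 ± 64.7 CPM in erythroblast-like cells. The mature libraries ran from 167 through a median of 584 to 1600 CPM, the last in replicate 17, and overlapped the myelocyte-like ones, which reached 209 CPM. In eosinophil-like cells it was at 186, 403 and 410.5 CPM. In monocyte/dendritic-like cells it was at 596.5, 936, 597, 698 and 836 CPM, all above the highest erythroblast-like library of 202 CPM. Over erythroblast-like cells the log2 fold changes were 1.67 ± 0.46 (promyelocyte-like, adjusted p = 0.00113), 1.98 ± 0.48 (myelocyte-like, adjusted p = 2.3e-04), 4.44 ± 0.38 (mature, adjusted p = 3.7e-17), 2.63 ± 0.65 (eosinophil-like, adjusted p = 5.2e-04) and 3.94 ± 0.41 (monocyte/dendritic-like, adjusted p = 8.9e-13), all edgeR.

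Cd44 stood at 264 ± 94.1 CPM in promyelocyte-like, 318 ± 191 in myelocyte-like, 662 ± 323 in mature neutrophil-like, 516 ± 193 in eosinophil-like and 338 ± 190 CPM in monocyte/dendritic-like cells, against 77.8 ± 27.0 CPM in erythroblast-like cells. All promyelocyte-like libraries (124 CPM or more) lay above the highest erythroblast-like library, at 123 CPM. It was higher in all 5 classes, by 1.72 ± 0.34 (promyelocyte-like, adjusted p = 5.9e-06) to 3.52 ± 0.31 (mature, adjusted p = 1.9e-17) on the log2 scale, edgeR.

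Cd47, the signal that SIRPα reads on other cells, differed less between classes, with class means from 236 to 684 CPM. It stood at 489 ± 111 CPM in promyelocyte-like, 334 ± 122 in myelocyte-like, 236 ± 162 in mature neutrophil-like, 506 ± 350 in eosinophil-like and 380 ± 141 CPM in monocyte/dendritic-like cells, against 684 ± 168 CPM in erythroblast-like cells. The erythroblast-like libraries ran from 446 through a median of 667 to 967 CPM and overlapped the ranges of each of these 5 classes. Cd47 was lower by -0.58 ± 0.26 in myelocyte-like (adjusted p = 0.0428), by -1.06 ± 0.31 in mature neutrophil-like (adjusted p = 0.00137) and by -0.75 ± 0.33 in monocyte/dendritic-like cells (adjusted p = 0.0492), edgeR on the log2 scale. The monocyte/dendritic-like call was lost without replicate 9 (-0.68, adjusted p = 0.0934) or replicate 10 (-0.75, adjusted p = 0.117), and sums of at least 10 cells ended the myelocyte-like (-0.44, adjusted p = 0.253) and mature calls (-0.72, adjusted p = 0.0992). A minimum of 2000 transcripts per cell ended the myelocyte-like (-0.52, adjusted p = 0.159) and monocyte/dendritic-like calls (-0.59, adjusted p = 0.277). In promyelocyte-like cells it did not pass (-0.55 ± 0.26, adjusted p = 0.0625, edgeR), although 8 of 11 alternatives made the call, among them DESeq2 (-0.80, adjusted p = 0.00315). Nor did it pass in eosinophil-like cells (-0.42 ± 0.43, adjusted p = 0.443, edgeR), where a minimum of 500 made the call (-0.92, adjusted p = 0.00895).

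**Figure D3:**
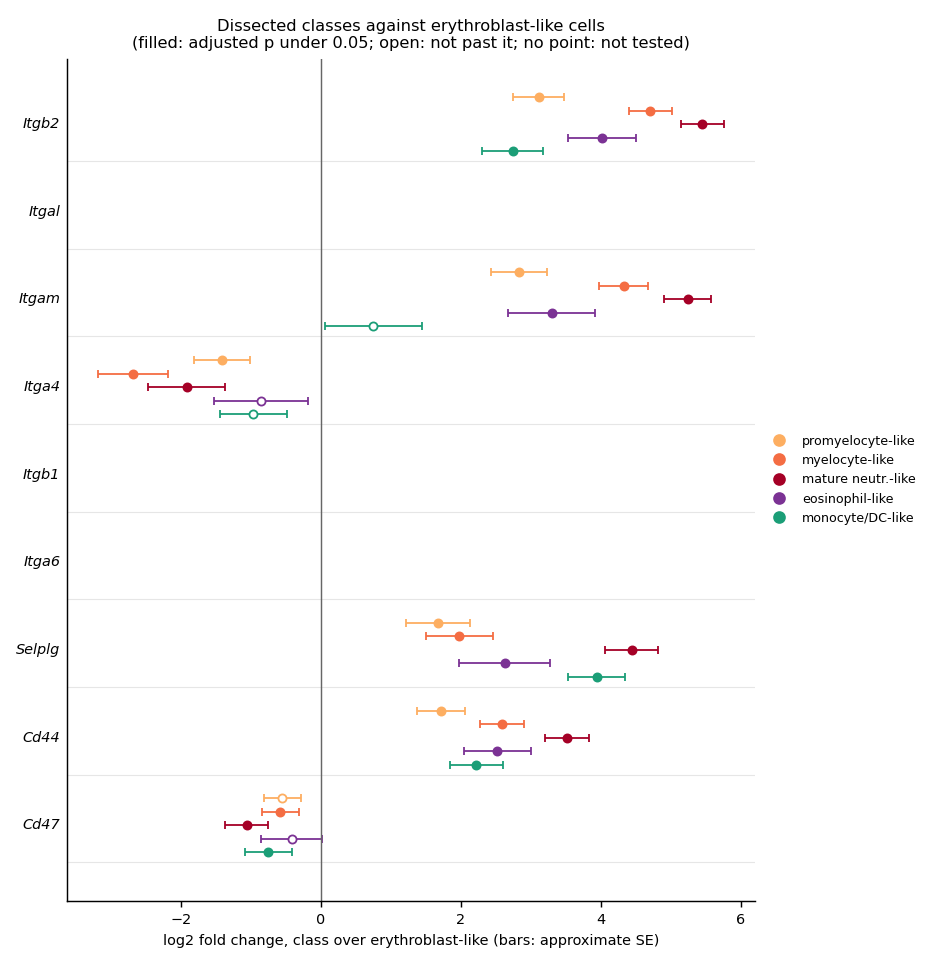
Log2 fold change of the 6 tested genes in each dissected class over erythroblast-like cells, with approximate standard errors; filled points have an adjusted p under 0.05. Itgb2, Selplg and Cd44 are right of 0 in all 5 classes, Itga4 and Cd47 are left of it, and Itgam is right of 0 but does not pass in monocyte/dendritic-like cells (0.75).

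Within the neutrophil line the β2 pair was higher at later stages. In myelocyte-like over promyelocyte-like cells, Itgb2 was higher by 1.60 ± 0.31 (adjusted p = 5.2e-05) and Itgam by 1.5 ± 0.35 (adjusted p = 6.6e-04), edgeR on the log2 scale; 3 of the 6 tested genes were higher and 0 lower, where 17.8% of all genes were called higher and 14.3% lower (32.2% in all). The Itgam call was lost with no filter on low counts (1.04, adjusted p = 0.083) and at a minimum of 2000 transcripts per cell (1.29, adjusted p = 0.105). The third was Cd44 (0.88 ± 0.34, adjusted p = 0.0369), which was lost with library totals as the scaling, with no filter, without replicates 1 to 5, at a minimum of 2000 and without the library block. In mature over promyelocyte-like cells, 4 were higher and 0 lower, where 27.9% of all genes were called higher and 28.0% lower (56.0% in all): Selplg by 2.77 ± 0.40 (adjusted p = 1.8e-08), Itgam by 2.42 ± 0.34 (adjusted p = 7.1e-09), Itgb2 by 2.34 ± 0.31 (adjusted p = 8.8e-10) and Cd44 by 1.80 ± 0.33 (adjusted p = 2.5e-06), all edgeR. Cd47 did not pass there (-0.52, adjusted p = 0.203, edgeR), but 6 of 11 alternatives called it lower, at -0.98 to -1.63. In mature over myelocyte-like cells, 4 were higher and 0 lower, where 11.4% of all genes were called higher and 18.8% lower (30.2% in all), with Selplg by 2.46 ± 0.41 (adjusted p = 2.4e-06, edgeR). At a minimum of 2000 the Selplg call was lost in both comparisons, at 1.30 over myelocyte-like (adjusted p = 0.206) and 1.54 over promyelocyte-like cells (adjusted p = 0.0907). Cd47 in mature over myelocyte-like cells (-0.49, adjusted p = 0.313, edgeR) was called lower in 3 of 12 alternatives, at -1.25 to -1.51. The other 3 calls there depended on where the clusters were drawn: Itgb2 (0.74 ± 0.27, adjusted p = 0.0261), Cd44 (0.93 ± 0.30, adjusted p = 0.0136) and Itgam (0.92 ± 0.29, adjusted p = 0.0119), all edgeR. With the adhesion genes kept in the clustering they were at 0.28 (adjusted p = 0.533), 0.24 (adjusted p = 0.653) and -0.05 (adjusted p = 0.939).

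Set against single classes, Itgb2 was lower in sorted HSC than in each of the 5 myeloid classes, and Itgam than in each of the 4 in which it was tested. The sorted sums here are those of replicates 3, 4 and 5 and are shared by all 6 comparisons. Sorted HSC averaged 20.7 ± 12 CPM of Itgb2, 3.25 ± 2.90 of Itgam and 7.05 ± 6.43 CPM of Itgal (n = 3). Itgb2 was lower than in promyelocyte-like (-3.90 ± 0.48, adjusted p = 1.3e-08), myelocyte-like (-5.10 ± 0.44, adjusted p = 6.2e-14), mature neutrophil-like (-4.91 ± 0.42, adjusted p = 1.7e-09), eosinophil-like (-4.84 ± 0.59, adjusted p = 2.0e-14) and monocyte/dendritic-like cells (-3.53 ± 0.62, adjusted p = 3.4e-04), edgeR on the log2 scale. Itgam was lower by -5.60 ± 0.65 (promyelocyte-like, adjusted p = 3.1e-09) to -6.66 ± 0.55 (myelocyte-like, adjusted p = 2.8e-14), by the same test. It had 2 transcripts in the sorted cells, and the counting ratio of mature neutrophil-like over sorted HSC levels was 266 (exact 95% interval 72.7 to 2210, counting error only). Against erythroblast-like cells neither β2 gene had enough transcripts for the test, and both were low.

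Selplg in sorted HSC (200 ± 44.5 CPM) lay between erythroblast-like and monocyte/dendritic-like cells. It was higher than in erythroblast-like cells (53.7 ± 64.7 CPM) by 2.72 ± 0.59 (adjusted p = 2.6e-04, edgeR), the 1 call among 3 tested genes where 25.2% of 1772 genes were called higher and 27.1% lower (52.3% in all). It was lower than in monocyte/dendritic-like cells (732 ± 150 CPM) by -1.76 ± 0.37 (adjusted p = 0.00194, edgeR), among 4 tested genes with 3 called lower and 0 higher, where 14.7% of 967 genes were called lower and 7.14% higher (21.8% in all). That call was lost with no filter on low counts (-1.42, adjusted p = 0.0528). Against mature neutrophil-like cells it did not pass (-0.76 ± 0.39, adjusted p = 0.0752, edgeR), although 10 of 13 alternatives made the call. Against promyelocyte-like cells it was at 0.79 ± 0.36 (adjusted p = 0.0689, edgeR), where leaving out sorted HSC replicate 5 made the call (0.98, adjusted p = 0.0406).

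Cd44 in sorted HSC (127 ± 50.4 CPM) was lower than in myelocyte-like (-1.26 ± 0.37, adjusted p = 0.00258), mature neutrophil-like (-1.41 ± 0.40, adjusted p = 0.00262) and eosinophil-like cells (-1.78 ± 0.50, adjusted p = 0.0025), edgeR on the log2 scale. The eosinophil-like call was lost with no filter on low counts (-1.36, adjusted p = 0.141). Cd44 was at -0.83 ± 0.36 against promyelocyte-like cells (adjusted p = 0.0578, edgeR), where 3 alternatives made the call. Against monocyte/dendritic-like cells it was lower by -1.32 ± 0.47 (adjusted p = 0.0482, edgeR), a call lost in 11 of 15 alternatives, among them leaving out sorted HSC replicate 3, 4 or 5 (adjusted p = 0.158, 0.18 and 0.0984) or dissected replicate 3 or 9 (adjusted p = 0.0848 and 0.0812). All calls in the remaining comparisons were lower in sorted HSC. They were 2 of 5 tested genes against promyelocyte-like cells, where 22.8% of all genes were called lower and 21.9% higher (44.7% in all). They were 3 of 4 against myelocyte-like cells, where 35.1% were lower and 34.5% higher (69.6% in all). They were 3 of 4 against mature neutrophil-like cells, where 36.7% were lower and 45.6% higher (82.2% in all), and 3 of 6 against eosinophil-like cells, where 14.1% were lower and 15.1% higher (29.2% in all).

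Itga4 in sorted HSC (127 ± 17.7 CPM) was at -0.60 ± 0.35 against erythroblast-like cells (239 ± 89.7 CPM; adjusted p = 0.141, edgeR) and at 0.10 ± 0.69 against eosinophil-like cells (adjusted p = 0.93, edgeR). Cd47 in sorted HSC (349 ± 178 CPM) passed against none of the 5 classes in which it was tested. Its log2 fold changes ran from -0.62 ± 0.33 (erythroblast-like, adjusted p = 0.114) to 0.24 ± 0.31 (myelocyte-like, adjusted p = 0.509), edgeR. Scaling by library totals made both the Itga4 and the Cd47 difference from erythroblast-like cells pass, at -0.95 each (adjusted p = 0.0235 and 0.0191). That scaling moved the median of all genes in that comparison to -0.40, beside -0.05 with the main scaling, so relative to the median of all genes the difference was of similar size.

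Shares of cells with a transcript depend on how deeply a cell was read, so each cell with at least 1000 tags was thinned to 1000. Cells with fewer tags were left out of the shares. That kept 681 of 707 dissected cells, with 226 of 244 erythroblast-like and 87 of 93 mature neutrophil-like cells, and all 245 sorted HSC. Itgb2 was then seen in 23.5% of promyelocyte-like, 64.4% of myelocyte-like and 77.0% of mature neutrophil-like cells, in 2.45% of sorted HSC and in 5.31% of erythroblast-like cells. Itgam was seen in 25%, 45.5% and 60.9% of the 3 neutrophil stages, in 0.408% of sorted HSC and in 5.75% of erythroblast-like cells. Cd47 was seen in 30.2% of sorted HSC and 59.7% of erythroblast-like cells. Itga4 was seen in 7.76% of sorted HSC, 16.9% of monocyte/dendritic-like cells and 20.4% of erythroblast-like cells. Red-cell precursors are not known to carry Mac-1. The Itgb2 and Itgam shares of sorted HSC (median 1926 transcripts before thinning) were below those of erythroblast-like cells (median 1794) and are not read as expression, and the part of free RNA in either was not tested. At least 1 of the 9 genes was seen in 85.5% of dissected cells and 62.9% of sorted HSC.

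**Figure D4:**
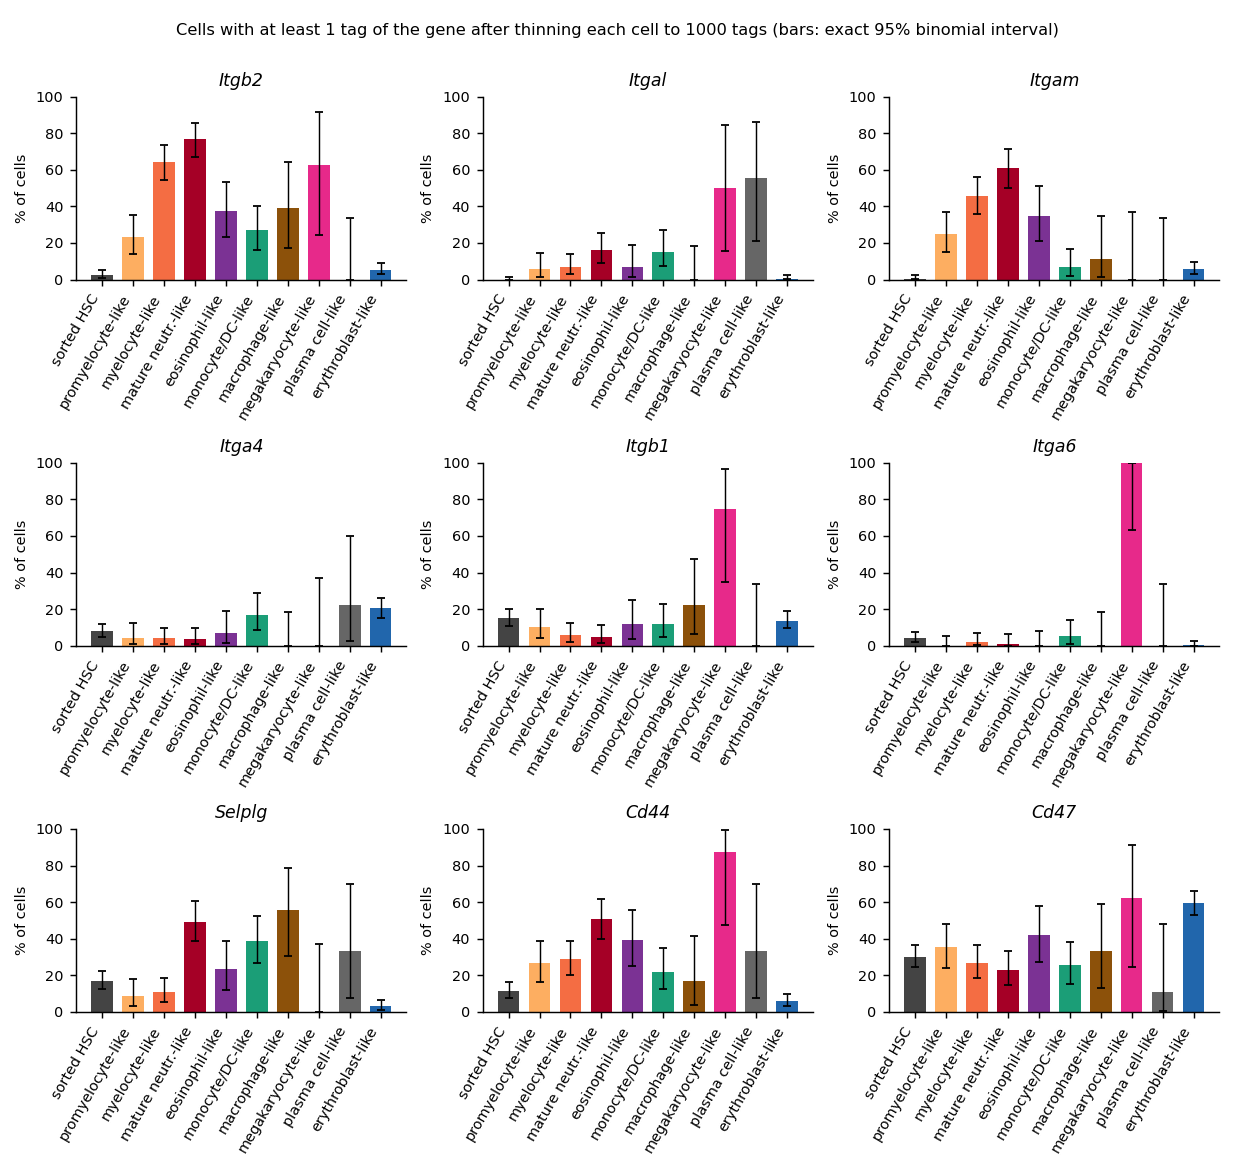
Percent of cells of each class with at least 1 tag of the gene after thinning to 1000 tags, over the cells with at least 1000 tags. Bars on the columns are exact 95% binomial intervals and cover counting error only. Itgb2 reaches 77.0% in mature neutrophil-like cells, Itga6 was in all 8 megakaryocyte-like cells, and Cd47 is at 59.7% in erythroblast-like cells.

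The RNA of both chains of an integrin was also counted within single cells; these shares are of unthinned cells, and depth differs between classes. Itgam with Itgb2 (Mac-1) were together in 55.9% of promyelocyte-like (exact 95% interval 43.3 to 67.9), 70.6% of myelocyte-like (60.7 to 79.2) and 63.4% of mature neutrophil-like cells (52.8 to 73.2). They were together in 0 of 245 sorted HSC (upper limit 1.49%) and in 4 of 244 erythroblast-like cells. Itgal with Itgb2 (LFA-1) were together in 29.4% to 32.4% of the cells of the 3 neutrophil stages, in 7 of 8 megakaryocyte-like cells and in 0 of 244 erythroblast-like cells (upper limit 1.5%). Itga4 with Itgb1 (VLA-4) were together in 6.53% of sorted HSC (16 of 245), in 0 of 93 mature neutrophil-like cells (which allows up to 3.89%) and in 11.9% of erythroblast-like cells (29 of 244, interval 8.11 to 16.6). The share was higher in promyelocyte-like cells, at 19.1% (13 of 68, interval 10.6 to 30.5). It was also higher in monocyte/dendritic-like cells, at 16.9% (10 of 59, interval 8.44 to 29.0), and these intervals overlapped that of erythroblast-like cells. Itga6 with Itgb1 (VLA-6) were together in all 8 megakaryocyte-like cells (lower limit 63.1%), in 5 of 68 promyelocyte-like cells and in 6 of 245 sorted HSC. A cell carried transcripts of a mean of 4.85 of the 9 genes in the promyelocyte-like class, 6.25 in the megakaryocyte-like class, 1.64 in sorted HSC and 1.89 in the erythroblast-like class, and 39 of 245 sorted HSC had none.

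Macrophage-like cells, 18 cells in 11 libraries with no library of 5, had a pooled 671 CPM of Selplg (exact 95% Poisson interval 508 to 869) and 553 CPM of Itgb2 (406 to 735). They had 212 CPM of Itgb1 (18 transcripts) and only 58.8 CPM of Itgam, from 5 transcripts. Itga4, Itgal and Itga6 had 2, 3 and 1 transcripts there. Plasma cell-like cells (9) were rich in Itgal, at 705 CPM (403 to 1140, 16 transcripts), with 308 CPM of Itga4 and no Itgam.

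The binding partners of the 9 receptors were also split by class. Vcam1, the partner of VLA-4, was at a pooled 4000 CPM in macrophage-like cells (exact 95% Poisson interval 3590 to 4450). It is on the marker list that named the macrophages, so this level is a description. Vcam1 was also at 495 CPM in eosinophil-like cells (389 to 622) and 402 CPM in promyelocyte-like cells (345 to 465). It had 0 transcripts in sorted HSC (upper limit 6.84 CPM) and was at 19.4 CPM in erythroblast-like cells. Sirpa, the receptor of Cd47, was at 1710 CPM in macrophage-like cells (1440 to 2010), 270 CPM in mature neutrophil-like cells (200 to 356) and 18 CPM in erythroblast-like cells. Icam4, a red-cell ligand of integrins, was at 20.4 CPM in sorted HSC (10.2 to 36.5) and 223 CPM in erythroblast-like cells (189 to 260). Icam2 and Icam1, ligands of LFA-1, were at 83.4 CPM (60.9 to 112) and 38.9 CPM in sorted HSC, with Icam1 at 0 transcripts in erythroblast-like cells. Thbs1, a ligand of Cd47 and also a megakaryocyte list gene, was at 15500 CPM in megakaryocyte-like cells. Fn1, fibronectin, was at 321 CPM in monocyte/dendritic-like cells (252 to 404, counting error only), from 73 transcripts in 9 of 59 cells. Fn1 also led a cluster of that name in the finer clustering, so its level there is a description.

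Of 22 listed genes that activate integrins or link them to actin, 11 had enough transcripts to be tested in the classes, and the counts describe those 11 alone. Over erythroblast-like cells 9 were higher in promyelocyte-like cells, where 34.0% of all genes tested were called higher, and 10 in myelocyte-like cells, where 35.5% were. In mature neutrophil-like cells 10 were higher (35.7% of all genes), in eosinophil-like cells 8 (26.1%) and in monocyte/dendritic-like cells 7 (28.4%), and 0 were lower in any of the 5. Their median log2 fold change was 2.65 in mature neutrophil-like cells, beside -0.34 over all genes tested. There Vasp, an actin elongation factor, was higher by 5.08 ± 0.32 (adjusted p = 7.4e-25), Flna, which crosslinks actin and binds integrin tails, by 4.61 ± 0.32 (adjusted p = 7.8e-23) and Zyx, a focal adhesion protein, by 4.49 ± 0.40 (adjusted p = 1.4e-15), all edgeR. In sorted HSC against all dissected cells, 1 of 19 tested members of that list was higher and 2 lower, where 11.2% of all genes tested were called higher and 19.2% lower, so the share of the list called lower was under that of all genes. The median log2 fold change of the 19 was -0.74, beside -0.16 over all genes.

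Of the linkers that tie Cd44 and Selplg to the cell cortex, 5 of 8 were tested; Msn, moesin, was higher in mature neutrophil-like cells (3.69 ± 0.32, adjusted p = 1.9e-17) and Epb4.1, the red-cell skeleton protein 4.1, was lower (-1.11 ± 0.36, adjusted p = 0.00485), edgeR on the log2 scale. In that class 1 of the 5 was higher and 3 lower. The counts of this paragraph stand beside 35.7% of all genes called higher and 42.1% lower in mature neutrophil-like over erythroblast-like cells, and 11.2% higher and 19.2% lower in sorted HSC over all dissected cells. Sorted HSC had 0 of 7 higher and 4 lower than all dissected cells, among them Ezr (-1.88 ± 0.40, adjusted p = 3.4e-04, edgeR). Of 26 listed counter-receptors and ligands, 6 were tested against erythroblast-like cells; in mature neutrophil-like cells 5 were higher and 1 was lower, Cd24a (-1.17 ± 0.22, adjusted p = 3.5e-06), edgeR. In sorted HSC 2 of 12 were higher and 5 lower than in all dissected cells (edgeR). Of 14 tetraspanins and partners, Cd53, a leukocyte tetraspanin, was higher in mature neutrophil-like cells by 5.29 ± 0.33 (adjusted p = 2.6e-25) and lower in sorted HSC than in all dissected cells by -6.10 ± 0.60 (adjusted p = 6.7e-10), edgeR. Of 8 tested tetraspanins and partners 5 were higher and 3 lower in mature neutrophil-like cells, and of 12 tested in sorted HSC 2 were higher and 4 lower. Of 20 other integrin subunits 1 was tested among the classes, Itga2b (0.65 ± 0.72 in mature neutrophil-like cells, adjusted p = 0.403, edgeR). In sorted HSC against all dissected cells 2 were tested and neither passed, and of 11 selectin-ligand glycosylation genes 3 were tested and 1, B4galt1, was lower (-1.41 ± 0.48, adjusted p = 0.023, edgeR).

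The dissected cells came as groups that had been attached to each other. Groups were read from numbers in the column names, whose coding no label describes. Cells that share a number are assumed to have been attached. Of 719 groups so read, 441 had at least 1 kept cell and 214 had 2 or more. Only kept cells of a named class counted as mates, and cells led by skeletal muscle genes did not. With 707 of 1546 dissected wells kept, a cell may have had attached neighbours that were not counted. These comparisons therefore cannot show what the full set of neighbours was. The erythroblast-like cells with a mate of another class (85 cells) did not differ at the test's threshold from those whose counted mates were all erythroblast-like (87 cells). Cd47, the one member tested, averaged 703 ± 110 CPM with another mate (SD, n = 9 libraries; 590 to 900.0 CPM) and 750 ± 280 CPM with erythroblast-like mates (n = 8; 305 to 1050 CPM), and the ranges overlapped (log2 fold change -0.11 ± 0.34, adjusted p = 0.999, edgeR). Itga4 averaged 210 ± 98.4 CPM with another mate and 234 ± 134 CPM with erythroblast-like mates and was not tested. Of 333 genes tested, 0.0% passed; 2 had an unadjusted p under 0.05 and DESeq2 called 0.

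Neutrophil-line cells with an erythroblast-like mate (56 cells, 7 libraries) were compared with those whose counted mates were all of the neutrophil line (81 cells, 9 libraries). Itgb2 averaged 480 ± 195 CPM with an erythroblast-like mate (209 to 695 CPM) and 833 ± 270 CPM among neutrophil-line mates (310 to 1180 CPM), with overlapping ranges (-0.78 ± 0.32, adjusted p = 0.244, edgeR). Cd47 averaged 509 ± 152 CPM with an erythroblast-like mate (297 to 674 CPM) and 268 ± 108 CPM among neutrophil-line mates (0 to 348 CPM; 0.51 ± 0.29, adjusted p = 0.343, edgeR). Itgam and Cd44 did not pass either (-0.53 and -0.52, adjusted p = 0.331 and 0.352, edgeR). Of 411 genes tested, 0.0% passed; 67 had an unadjusted p under 0.05 and DESeq2 called 4. Cells with an erythroblast-like mate were 26 promyelocyte-like, 21 myelocyte-like and 9 mature, and those among neutrophil-line mates 11, 38 and 32, so the stages were not alike. Within a stage the pooled Itgb2 levels were 327 CPM (exact 95% Poisson interval 252 to 418) with an erythroblast-like mate and 354 CPM (240 to 502) without in promyelocyte-like cells. They were 895 CPM (703 to 1120) with and 836 CPM (684 to 1010) without in myelocyte-like cells, and 754 CPM (390 to 1320) with and 1130 CPM (898 to 1400) without in mature cells, so the intervals overlapped in all 3 stages. Pooled Cd47 was at 496 CPM (402 to 605) with and 365 CPM (250 to 515) without in promyelocyte-like cells. It was at 351 CPM (235 to 504) with and 284 CPM (199 to 393) without in myelocyte-like cells, and at 440.0 CPM (177 to 906) with and 207 CPM (116 to 341) without in mature cells, with overlapping intervals in each.

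**Figure D5:**
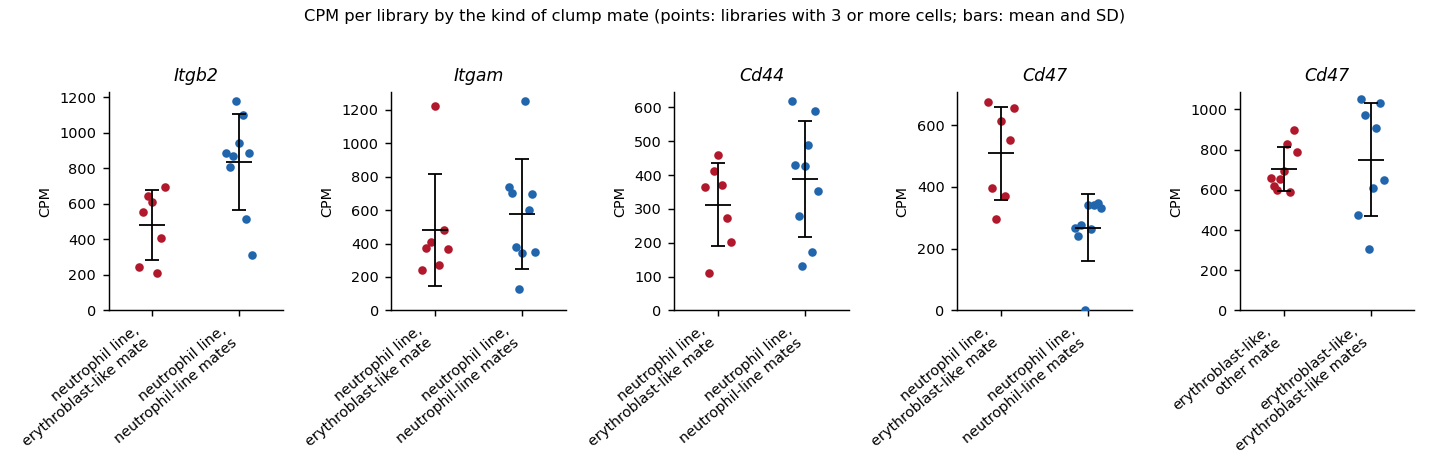
Level of 4 genes in neutrophil-line cells and of Cd47 in erythroblast-like cells, in CPM per library of 3 or more cells (points), with mean and SD. Cells are split by the kind of counted mate, which leaves out attached cells that were not kept or not named. Itgb2 averages 480 CPM with an erythroblast-like mate and 833 CPM among neutrophil-line mates, Cd47 509 and 268 CPM, and the points of the groups overlap in every panel.

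Erythroblast-like cells taken from a group with a kept macrophage-like cell were few, 11 cells of 8 groups in 5 libraries. Their pooled Itga4 was 186 CPM (exact 95% Poisson interval 80.5 to 367), against 256 CPM (219 to 297) in the other 233 erythroblast-like cells. Itgb1 was at 140.0 CPM (51.3 to 304), against 125 CPM (99.8 to 154), and Cd47 at 792 CPM (549 to 1110), against 670.0 CPM (610.0 to 734). All 3 pairs of intervals overlapped.

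The erythroblast-like cells fell into 3 clusters, led by Slc20a1 (94 cells), Car1 (82) and Xpo7 (68). Cd47 differed between them: it averaged 820 ± 175 CPM in the other clusters (SD, n = 11 libraries; 545 to 1060 CPM) and 523 ± 158 CPM in the Car1-led cluster (n = 8; 281 to 677 CPM), with a log2 fold change of 0.72 ± 0.22 (adjusted p = 0.00306, edgeR). The ranges overlapped. It was the 1 member with enough transcripts for this comparison, which was added after seeing the data, and 80.0% of the 431 genes tested passed, 42.2% as higher and 37.8% as lower. Itga4 averaged 238 ± 135 CPM in the other clusters and 234 ± 129 CPM in the Car1-led cluster, and Itgb1 127 ± 70.4 CPM in the other clusters and 131 ± 67.2 CPM in the Car1-led cluster. Pooled by cluster, Cd47 was at 963 CPM in the Xpo7-led cluster (exact 95% Poisson interval 789 to 1160), 826 CPM in the Slc20a1-led cluster (703 to 965) and 533 CPM in the Car1-led cluster (466 to 608).

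Genes with the most similar pattern were found over 46 library-by-class sums, among 3172 genes with a mean of at least 50 CPM, by Pearson correlation of log2(CPM + 10). The sums of a library share its preparation and depth, and these values are descriptions. Itgb2 was closest to Fcer1g (0.937), Rac2 (0.922) and Cybb (0.919), and Itgam to Cybb (0.905), Adpgk (0.901) and Rhou (0.898). Cd44 was closest to Myl6 (0.819), Cd47 to Rpl31 (0.771), Itgal to Arpc1b (0.75), Selplg to Laptm5 (0.744), Itga4 to Eef2k (0.742) and Itgb1 to Topbp1 (0.731); Itga6 was under 50 CPM. Between members, Itgb2 and Itgam were at 0.881, Itgal and Cd44 at 0.693, Itga4 and Cd47 at 0.486, Itgb2 and Cd47 at -0.464 and Itgb2 and Itga4 at -0.659.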

How the data were processed

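Transcripts were counted by CEL-seq, per the labels' protocols, and reads were aligned with BWA 0.6.2-r126 to mm10, per the submitters' processing notes. Sorted libraries were read on a HiSeq2500 or NextSeq500 and dissected ones on a NextSeq500, per the labels. The authors deposited estimated counts, which need not be whole. All values convert to whole tags, within 0.01 transcripts, under a correction for collisions among 256 possible tags, which was read from the values and is not stated. They were rounded to whole transcripts for the tests. Micro-dissected replicate 18 and sorted HSC replicate 2 were not analysed here. The replicate numbers follow accession order, and the cell and group numbers come from the column names. No label describes the coding of the group numbers, so their meaning is assumed.

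Cells of 1000 transcripts or more were clustered with scanpy 1.11.5 (2000 variable genes less 24 adhesion genes, 30 components, 15 neighbours, Leiden resolution 1 with leidenalg 0.10.2). A cluster took a name where at least 3 markers of its list were raised at least 2 times, and doublets were not called. The 9 genes were left out of clustering, but genes that vary with them were not. Counts were summed per library, or per library and class with at least 5 cells (3 for attached mates), in classes with at least 3 such libraries. Sums were tested in R 4.3.3 with edgeR 4.0.16 (filterByExpr, TMM, glmQLFit robust, glmQLFTest), with p-values adjusted by Benjamini-Hochberg over all genes tested and a threshold of 0.05. The library was a block between dissected classes, since classes of a library come from the same preparation. SEs are approximate, from the log2 fold change and the F statistic. DESeq2 1.42.0, RLE factors, library totals, other filters, cell minimums and clusterings were alternatives. Intervals are exact at 95%; they and the floor of 3 counts cover counting error only. The test was run on simulated data with 4-fold changes. In sorted HSC against dissected cells it recovered 70.1% of 144 changed genes, and 2.88% of its calls were false. In promyelocyte-like against erythroblast-like cells it recovered 88.2% of 169, and 2.61% of its calls were false. A difference that did not pass may therefore have been missed.

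The 9 genes, the lists and the tests were chosen with earlier results of these data known. The genes named are the 9 members in every comparison, at most 3 tested genes per list, taken by mean CPM, and the 3 genes most like each member in pattern. The values of 1 gene among those on the counter-receptor list are not reported here.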

Additional observations from a re-analysis of the deposited data

Results flagged for a closer look

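In 7 of 45 groups of libraries 1 library stood apart from the rest of its class, measured by its gap to the nearest other library over the whole range. How often chance gives such a gap in counts this low was not tested, so the number flagged is a description. Mature neutrophil-like cells gave 4 of them. Itgal was at 73.0 CPM in replicate 3, where the other libraries had 190.0 to 285 CPM, and Itgb1 was at 73.0 CPM in the same replicate, where the others had 0 to 26.7 CPM; each of these rests on 1 transcript in 7 cells. Itga4 was at 167 CPM in replicate 11 of that class, from 2 transcripts in 9 cells, where the others had 0 to 53.4 CPM. Selplg was at 1600 CPM in replicate 17, from 28 transcripts in 12 cells, where the others had 167 to 733 CPM. Itgb1 was at 965 CPM in sorted HSC replicate 1, from 3 transcripts in 2 cells, where the others had 85.6 to 151 CPM. Itgb1 was at 296 CPM in promyelocyte-like cells of replicate 11, from 12 transcripts in 9 cells, where the others had 18.9 to 93.2 CPM. Itga6 was at 242 CPM in monocyte/dendritic-like cells of replicate 9, from 6 transcripts in 8 cells, where the others had 0 to 22.9 CPM.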

How the results depend on the processing

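Of 1094 alternative values for 89 differences of single genes, 968 kept their direction and their side of the threshold, 56 lost a call, 40 gained one and 30 reversed. The cause of these changes was not tested, except where an alternative tests more genes or leaves fewer cells or libraries by its construction. No alternative reversed a called difference except Itgam in mature over myelocyte-like cells, at -0.05 with adhesion genes kept in clustering.

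Counts of members called moved as follows. Sorted HSC against all dissected cells gave 4 calls, 2 at a minimum of 2000 transcripts per cell, and 2 to 4 when 1 sorted library was left out. Sorted HSC against the classes gave 15 calls, 25 with no filter on low counts and 7 at a minimum of 2000. The classes and stages gave 36 calls, 23 at a minimum of 2000 and 12 with at least 10 cells per sum, where fewer comparisons could be fitted. By attached mate there were 0, and 3 at a minimum of 500 (Itgb2 -0.73, Itgam -0.78 and Cd44 -0.86 in neutrophil-line cells). The Car1-led comparison gave 1, and 2 with no filter. At least 1 of the 9 genes was seen in 85.5% of dissected cells, 96.7% unthinned and 64.8% at 500 tags, and in 62.9% of sorted HSC, 84.1% unthinned and 33.5% at 500 tags.

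Reversed values were as follows. Selplg in sorted HSC over all dissected cells was at 0.08 at a minimum of 2000, and Itgb1 at 0.46 without megakaryocyte-like cells. In sorted HSC over eosinophil-like cells, Cd47 was at 0.11 with no filter and -0.61 to 0.27 with 1 library left out, and Itga4 at -0.02 with library totals and -0.36 to 0.5 with 1 library left out. In sorted HSC over monocyte/dendritic-like cells, where the main value was -0.01, Cd47 was at 0.05 with RLE factors, 0.26 with no filter, 0.04 with DESeq2, 0.2 without replicates 1 to 5, 0.04 at a minimum of 2000, 0.26 and 0.18 at resolutions 0.5 and 2, 0.02 with adhesion genes kept, and -0.28 to 0.39 with 1 library left out. Over myelocyte-like cells Cd47 was at -0.04 to 0.55 with 1 library left out. In myelocyte-like over promyelocyte-like cells, Cd47 was at 0.13 with RLE factors and with DESeq2, 0.01 at a minimum of 500 and 0.02 at 2000, and Selplg at -0.07 with library totals, -0.1 with no filter and -0.16 without replicates 1 to 5. In mature over myelocyte-like cells Itga4 was at -0.84 at a minimum of 2000. By attached mate, Cd47 of erythroblast-like cells was at 0.01 at a minimum of 500, and Itgb2 of neutrophil-line cells at 1.25 at a minimum of 2000.

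Counts over all genes moved too. Sorted HSC against all dissected cells had 1106 calls, 2838 with no filter and 584 at a minimum of 2000. Against the classes there were 3164, 17135 with no filter and 1743 at 2000, and between classes 5690, 12820 with no filter and 3277 at 2000. By mate there were 0, 7 with no filter, 4 with DESeq2, 117 at a minimum of 500, 1 at resolution 2 and 2 with at least 5 cells per sum, and in the Car1-led comparison 345, and 985 with no filter. With library totals the median over all genes in mature neutrophil-like over erythroblast-like cells was -0.82 on the log2 scale, beside -0.34. Calls that were higher made up 36.9% in sorted HSC over all dissected cells and 48.4% with library totals. Over erythroblast-like cells they made up 48.1% and 32.0%, over mature neutrophil-like cells 55.4% and 45.1%, and over promyelocyte-like cells 48.9% and 36.0%. In myelocyte-like over erythroblast-like cells they made up 52.1% and 41.4%. Between stages they made up 55.5% (myelocyte-like over promyelocyte-like), 65.8% with RLE factors and 30.4% with library totals; 49.9% (mature over promyelocyte-like), 62.5% and 34.5%; and 37.8% (mature over myelocyte-like), 52.2% with RLE factors.

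Without the library as a replicate block (no replicate block), Cd44 in myelocyte-like over promyelocyte-like cells (0.71, adjusted p = 0.121, edgeR) and Itgb2 in mature over myelocyte-like cells (0.69, adjusted p = 0.0592, edgeR) lost their calls, and no other call changed. No paired analysis was possible because sorted HSC and dissected replicates come from different libraries and their numbers follow accession order only. Sums of at least 10 cells left no comparison for eosinophil-like, monocyte/dendritic-like or promyelocyte-like cells. Depth limits the low genes: 1 transcript was 3.19 to 321 CPM of a library, and Itgal, Itgb1 and Itga6 could not be tested between classes.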

Other observations

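The 53 unnamed dissected cells, all in micro-dissected replicates 1 to 5, carried the β2 pair and Cd47: pooled levels were 544 CPM for Itgb2, 326 CPM for Itgam, 464 CPM for Cd47, 181 CPM for Cd44, 131 CPM for Itga4 and 102 CPM for Selplg. They also held 68000 CPM of the myelocyte list (14 of 14 genes) and 10800 CPM of the erythroblast list (23 of 24). The 10 cells led by skeletal muscle genes also held Itgb2 (248 CPM), Itgam (359 CPM), Itgb1 (221 CPM) and Cd47 (331 CPM). These cells carried 29800 CPM of the myelocyte list (14 of 14 genes) and 9390 CPM of the erythroblast list (24 of 24) beside 84700 CPM of the skeletal muscle list (12 of 12). The part of RNA or cells of other classes in both sets of levels was not tested. Neither set entered a comparison between classes.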
